A study of Mus musculus with 10 samples.

Results

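MB-3 was compared with its vehicle, DMSO, in mouse embryonic stem (ES) cells within the replicate letters A, B and C that the sample labels carry, which used 6 of the 10 samples of the series. The cells were TNGA, an ES cell line with a green fluorescent protein reporter expressed from 1 Nanog allele, grown in serum with leukemia inhibitory factor (LIF). The DMSO group had 3 libraries of cells given vehicle alone and the MB-3 group had 3 libraries of cells given 100 μM MB-3, both for 48 hours at a final DMSO volume of 0.1%. The comparison therefore rests on a single line, dose and time, and the labels do not say whether a letter marks a culture, a day or a position. With the letter in the fit, p-values measure how the MB-3 to DMSO difference varies between letters, and that spread may be technical. PolyA RNA was sequenced to 48144367, 51137896 and 46863700 counts in DMSO A, B and C, and to 49334434, 44985772 and 42270312 counts in MB-3 A, B and C. Levels are given as CPM, the counts scaled to a common library size after correction of library sizes by the trimmed mean of M-values (TMM), and comparisons between genes as CPM per kilobase of exon (RPKM).

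MB-3 is a small molecule that inhibits Kat2a, the acetyltransferase also called Gcn5. Kat2a and its close relative Kat2b work inside the SAGA and ATAC coactivator complexes, where they acetylate histone H3, with lysine 9 as their best known site. In mouse ES cells, factors such as Pou5f1, Sox2 and Nanog hold the undifferentiated state, and cultures in serum and LIF are heterogeneous mixtures in which some cells express early differentiation genes.

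The libraries expressed the genes that define ES cells. The summed level of 8 ES cell markers was 4313, 4529 and 4029 CPM in DMSO A, B and C, and 4071, 4318 and 4166 CPM in MB-3 A, B and C, with Dppa5a the most abundant. Pou5f1, the octamer-binding pluripotency factor, was at 650, 713 and 653 CPM in DMSO and at 660, 717 and 652 CPM in MB-3, and the groups overlapped. Only Utf1 among the 8 passed the test, with a log2 fold change of 0.28 ± 0.06 (SE, edgeR adjusted p = 0.0023), and it was lower in MB-3 than in DMSO within letter B.

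The letter was used as a block in the fit, so each MB-3 library was set against the DMSO library of its own letter. Across tested genes, the deviations of same-letter libraries from their group means correlated at 0.0863 for A, 0.242 for B and 0.198 for C, against -0.196 to -0.0143 for libraries of other letters. Each library thus correlated best with its own letter, but A stayed under the limit of 0.1 at which the letters would have been taken as pairs, so whether they pair the cultures was not settled. With the block, the quasi-likelihood test of edgeR, adjusted by the Benjamini-Hochberg procedure, called 1425 of 20027 genes (7.12%) at an adjusted p under 0.05, of which 644 were higher (3.22%) and 781 lower (3.9%) in MB-3. Without the block the same test called 41 genes (0.205%), all of them among the 1425.

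Most called changes were small. The median fold of the higher genes was 1.17 and that of the lower genes 0.765, and 110 genes changed at least 2-fold, 11 upward and 99 downward. The 3 letters moved together in 1391 of the called genes. Over all tested genes, 20.2% were higher and 20.3% lower in MB-3 within every letter. The DMSO and MB-3 libraries did not overlap in 874 of the called genes, against 15.6% of all tested genes. They overlapped in the other 551. In 34 of the called genes the letters did not all move the same way. The called genes were picked by the test within letters on these same libraries. Agreement of letters and separation of groups among them therefore follow in part from that choice. With 1 letter left out, the calls numbered 939 without A, 912 without B and 1037 without C. Every gene of the 1425 that was still tested kept its sign. These fits shared libraries with the fit of all letters, so the signs were not an independent check.

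The genes that fell largely shared an order of letters. Among the 781 lower genes, 493 (63.1%) were highest in letter C, intermediate in A and lowest in B in the DMSO libraries, against 18.6% of all tested genes and 5.75% of the higher genes. The same order held in the MB-3 libraries for 48.7% of the lower genes, against 18.0% of all tested genes. Within letters, the median log2 ratio of the lower genes was -0.34 in A, -0.28 in B and -0.44 in C, and that of the higher genes 0.21, 0.21 and 0.26. With 1 library per treatment and letter, a difference of the MB-3 effect between letters cannot be tested.

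**Figure D1:**
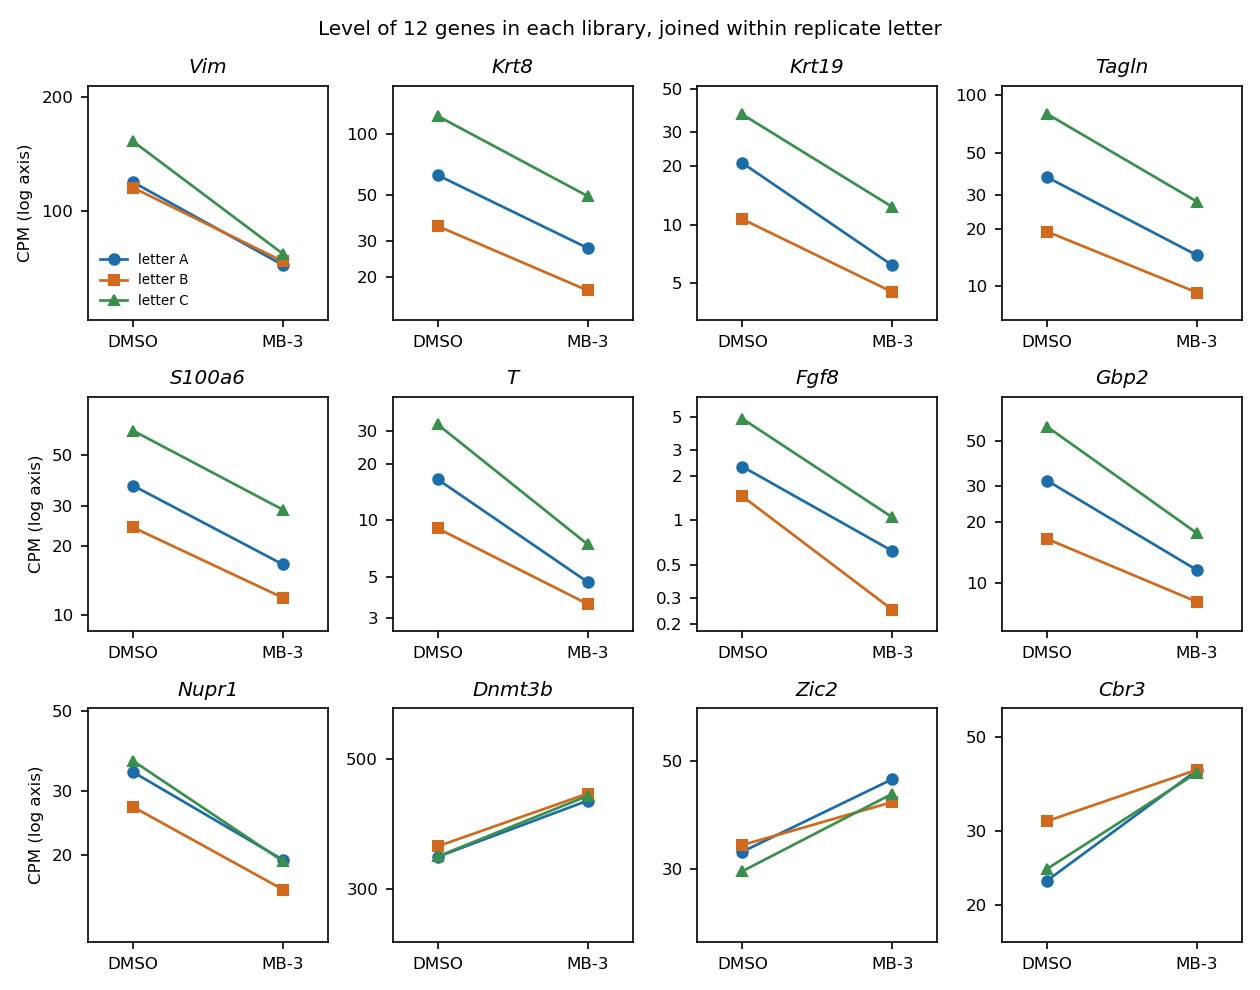
Level in CPM (vertical log axis) of 12 genes in the DMSO and MB-3 libraries, with a line joining the 2 libraries of a letter (A circle, B square, C triangle). Vim, Krt8, Krt19, Tagln, S100a6, T, Fgf8, Gbp2 and Nupr1 fell and Dnmt3b, Zic2 and Cbr3 rose within every letter, and the libraries of Krt8, for example, overlap between treatments because letter C starts at 122 CPM and letter B at 35.4 CPM.

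No change passed the test in the RNA of the drug target or of its complexes. Kat2a (chr11:100704746-100712465 on GRCm38, minus strand) was at 126, 139 and 127 CPM in DMSO A, B and C and at 124, 131 and 133 CPM in MB-3, a log2 fold change of -0.01 ± 0.05 (SE, edgeR adjusted p = 0.95). Kat2b was at 62.6, 58.3 and 52.2 CPM in DMSO and at 58.6, 56.5 and 59.7 CPM in MB-3, with a log2 fold change of 0.02 ± 0.05 (edgeR adjusted p = 0.91). The groups overlapped for both genes, and per length Kat2a, at 37.5 RPKM in DMSO, stood above Kat2b at 11.9 RPKM. Of 26 tested SAGA and ATAC subunits, 0 were called, against 7.12% of all tested genes, also under each of the alternatives tried. At that share a list this short would hold few calls.

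Among other chromatin regulators the rises outnumbered the falls, where 3.22% of all tested genes were called higher and 3.9% lower. Of 12 other acetyltransferases 3 rose, Ncoa3 by a log2 fold change of 0.20, Ep300 by 0.16 and Kat6b by 0.16. Without letter C only 1 of the 12 was called. Of 17 readers of acetylated lysine (11.8% called), Cecr2 (0.19) and Bptf (0.16) rose. Of the readers, 1 was called without letter A or B and 3 without C. Of 18 deacetylases (5.56% called, near the 7.12% of all tested genes) only Hdac7 changed (-0.41). That call was lost without letter A or C, and 2 of the 18 were called without B. Of 27 Polycomb subunits 5 rose, led by Jarid2 (0.31), which helps to recruit Polycomb repressive complex 2, and Phc2 alone fell (-0.37), but fewer of the list were called when letter A (3) or B (4) was left out.

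Some genes of DNA methylation rose. Of 11 tested genes, 5 were called higher and 0 lower (45.5% called, against 7.12% of all tested genes). The median log2 fold change over the list was 0.10, against -0.00 over all tested genes. Dnmt3b, a methyltransferase that sets new methylation (chr2:153649450-153687730, plus strand), was at 341, 355 and 341 CPM in DMSO A, B and C and at 425, 437 and 433 CPM in MB-3. Every MB-3 library lay above every DMSO library, with a log2 fold change of 0.32 ± 0.04 (SE, edgeR adjusted p = 2.5e-06). Dnmt3a, the second such enzyme, went from 65.4 to 70.9 CPM in DMSO to 82.5 to 88.9 CPM in MB-3 (log2 fold change 0.34 ± 0.05, edgeR adjusted p = 7.9e-06), and its RNA overlaps Dnmt3aos on the opposite strand. Tet1 (0.29) and Tet2 (0.21), which oxidize methylated cytosine, and Dnmt3l (0.19), a cofactor of both methyltransferases, rose as well. Dnmt3l overlaps Aire, which also rose (0.49), and Tet2 overlaps a predicted gene, both on the opposite strand. Dnmt1 (0.10), which maintains methylation, did not pass the test. With letter C left out 3 genes of the list were called, and 0 in the glmTreat test against a change of 1.2-fold.

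Genes of the cytoskeleton were among the falls with the smallest p-values. Krt8, a keratin of simple epithelia (chr15:101996698-102004482, minus strand), was at 62.7, 35.4 and 122 CPM in DMSO A, B and C and at 27.7, 17.2 and 49.6 CPM in MB-3. In each treatment C was highest and B lowest, so that MB-3 C lay above DMSO B and the groups overlapped, but every letter fell, by log2 ratios of -1.17, -1.02 and -1.29. The log2 fold change was -1.18 ± 0.06 (SE, edgeR adjusted p = 1.1e-15 with the block and 0.25 without it). In bulk RNA, fewer cells that express such genes and less RNA per cell cannot be told apart.

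Tagln, an actin-binding protein of contractile cells (chr9:45929619-45936058, minus strand), was at 37.2, 19.3 and 79.9 CPM in DMSO A, B and C and at 14.5, 9.24 and 27.7 CPM in MB-3. It fell in every letter to a log2 fold change of -1.34 ± 0.07 (SE, edgeR adjusted p = 3.5e-15). Krt19, the smallest keratin (chr11:100140810-100148665, minus strand), was at 20.8, 10.7 and 37.1 CPM in DMSO and 6.19, 4.51 and 12.4 CPM in MB-3, a log2 fold change of -1.55 ± 0.08. The keratin partner of Krt8, Krt18, fell by 0.87 on the log2 scale. Of the 4 simple epithelial keratins tested these 3 fell (75.0% called, against 7.12% of all tested genes). Krt7, under 1 CPM, did not pass the test (-0.21).

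S100a6, a small calcium-binding protein (chr3:90612882-90624181, plus strand), was at 36.7, 24.1 and 63.6 CPM in DMSO and 16.7, 11.9 and 28.8 CPM in MB-3, a log2 fold change of -1.10 ± 0.06 (SE, edgeR adjusted p = 7.2e-15). Letter C was again highest and B lowest under both treatments, and MB-3 C lay above DMSO B. Vim, the intermediate filament of mesenchymal cells (chr2:13573927-13582826, plus strand), behaved differently, at 119, 115 and 153 CPM in DMSO and 71.9, 73.5 and 76.9 CPM in MB-3, so that the groups did not overlap. Its log2 fold change was -0.79 ± 0.05 (edgeR adjusted p = 2.3e-12), and it was the only one of these 5 genes called without the block. Reads of Krt8 and Tagln may include RNA of genes on the opposite strand, Gm36026 and Pcsk7 among them, because use of strand in counting is not stated.

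Among related genes, falls outnumbered rises, where 3.9% of all tested genes were called lower and 3.22% higher. Among S100 proteins and annexins, which bind calcium and membranes, 8 of 15 fell and 1 rose, with a median log2 fold change of -0.25. Anxa1 (-1.24), Anxa3 (-1.18), Anxa2 (-0.83), Anxa5 (-0.70) and S100a10, the partner of Anxa2 (-0.67), fell in every letter, and Anxa11 rose by 0.19. Of 13 intermediate filaments and lamins 4 fell and 1 rose, with a median of -0.01 over the list. The rise was in Ina, a neuronal filament (0.27), whose locus is shared with Nt5c2 on the other strand. The falls included Nes, the filament of neural progenitors (-0.68), and Lmna (-0.48), which encodes the A-type lamins. Lmnb1, a B-type lamin, was at 0.10 and did not pass the test.

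Of 21 contractile and actin-binding genes 9 fell and 0 rose (42.9% called, against 7.12% of all tested genes). Cnn1 (-0.76), Cald1 (-0.75), Acta2 (-0.50) and Tpm1 (-0.47) came after Tagln. The abundant cytoplasmic actins Actb (0.00) and Actg1 (-0.07) did not pass the test. Cavin1, a coat protein of caveolae, was at 23.3, 23.2 and 29.5 CPM in DMSO and 12.7, 13.7 and 16.1 CPM in MB-3, with no overlap and a log2 fold change of -0.84 ± 0.06 (SE, edgeR adjusted p = 5e-11).

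A minority of matrix genes and their receptors fell, where 3.9% of all tested genes were called lower and 3.22% higher. Of 29 collagens, laminins and matrix genes 8 fell, 2 rose and 19 did not pass the test, among them fibronectin, Fn1 (0.01), the most abundant of the list. The falls were Col1a1 (-1.33) and Col1a2 (-1.28), the chains of type I collagen, Thbs1 (-0.94), Col5a1 (-0.89), the collagen chaperone Serpinh1 (-0.81), the basement membrane chains Col4a2 (-0.55) and Col4a1 (-0.46), and Sparc (-0.46). The rises were Col9a2 (0.74) and Col18a1 (0.18). Of 19 integrins and focal adhesion genes 7 fell and 0 rose. The largest falls were in the hyaluronan receptor Cd44 (-1.34, at a mean of 0.91 CPM), Parva (-0.73), Zyx (-0.57) and Itga3 (-0.48). Itgb1 (-0.13), the shared beta chain, did not pass the test.

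At cell junctions the calls went both ways. Cdh2, the neural cadherin, fell by 0.65 on the log2 scale, while Cdh3, the placental cadherin, rose by 0.36, and Cdh1, the epithelial cadherin, was at 0.04 and did not pass the test. The desmosomal genes Dsc2 (-0.55) and Dsp (-0.38) fell, and Esrp1 (0.27), an epithelial splicing factor, rose.

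Some genes that respond to serum and stretch fell, where 3.9% of all tested genes were called lower. Of 17 targets and partners of YAP and TEAD 5 fell and 0 rose, among them Ccn1 (-0.82), Amotl2 (-0.31) and Wwtr1, which encodes TAZ (-0.29), while Yap1 (0.07) and Ccn2 (-0.09) did not pass the test. Of 13 immediate early and AP-1 genes 5 fell, Atf3 (-1.09), Fosl2 (-0.85), Jun (-0.64), Fos (-0.61) and Egr1 (-0.32), the last of which was slightly higher in MB-3 within letter A. Without letter C, 3 of these 13 were called.

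Markers of other cell types were followed beside these falls. The summed level of 10 fibroblast markers, of which 6 could be tested and 2 fell (Col1a1 and Col1a2), was 10.0, 8.19 and 11.1 CPM in DMSO A, B and C and 6.79, 6.95 and 6.81 CPM in MB-3. Thy1 was the most abundant at 3.25 CPM, and 7 of the 10, Col1a1, Lum, Dcn, Postn, Prrx1 and Col3a1 among them, were under 1 CPM. The 5 smooth muscle markers summed to 46.5, 37.4 and 63.8 CPM in DMSO and 36.5, 32.6 and 41.0 CPM in MB-3, with Acta2 the most abundant, Cnn1 and Acta2 lower and Lmod1 under 1 CPM. The trophectoderm markers (7 of 8 in the table, 5 tested, 0 called, 6 under 1 CPM) summed to 3.17 to 7.24 CPM in DMSO and 2.62 to 4.59 CPM in MB-3, with Cdx2 the most abundant. In a longer list of trophectoderm genes (16.7% called, against 7.12% of all tested genes), 2 of 12 rose, Fgfr2 (0.37) and Tfap2c (0.17), and 0 fell. The call of Tfap2c was lost when any letter was left out. The extraembryonic endoderm markers (7 of 8 in the table, 6 tested, 0 called, 6 under 1 CPM) summed to 9.17 to 12.2 CPM in DMSO and 8.22 to 10.1 CPM in MB-3, with Dab2 the most abundant. In a longer list of that lineage (26.7% called), 4 of 15 genes fell, Cited1 (-1.87), Col4a2, Col4a1 and Sparc, and 0 rose, at a median of -0.24. In the marker lists no gene in the table was at 0 in every library. The part of other cell types in the falls was not tested.

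**Figure D2:**
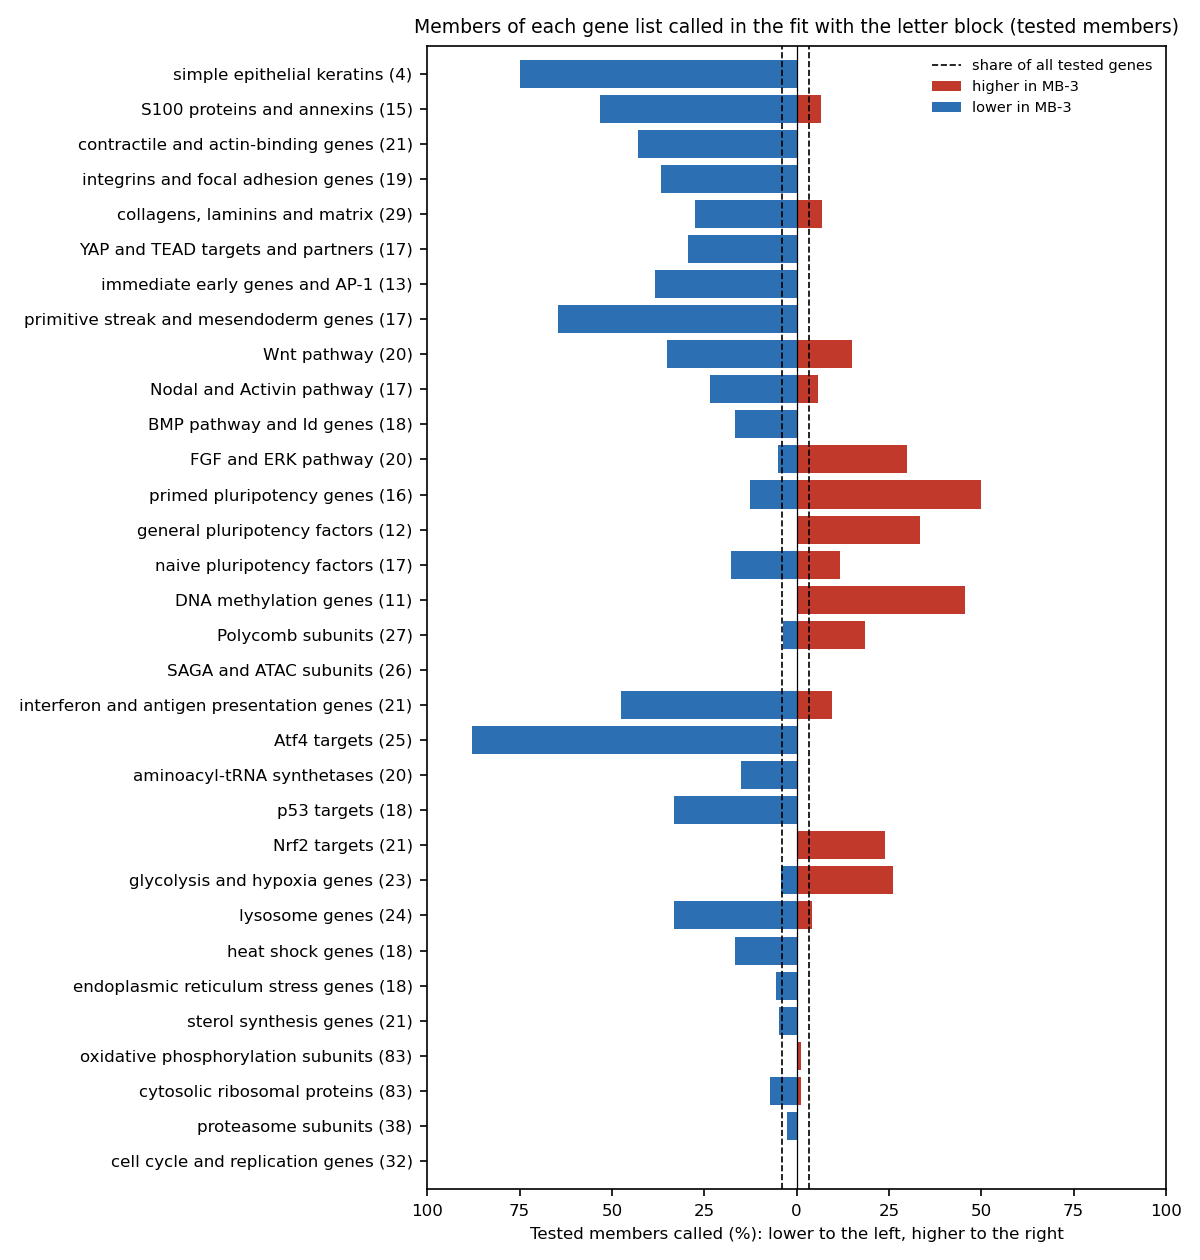
Share of the tested members of 32 gene lists (number tested in parentheses) that were called lower (bars to the left) or higher (bars to the right) in MB-3, in percent, in the fit with the letter block. Dashed lines mark the shares of all tested genes, 3.9% lower and 3.22% higher, and the longest bars to the left belong to Atf4 targets (22 of 25), keratins (3 of 4) and primitive streak genes (11 of 17).

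Genes that mark the primitive streak, the structure from which mesoderm and endoderm form, were among the falls. Of 17 primitive streak and mesendoderm genes tested, 11 fell and 0 rose (64.7% called, against 7.12% of all tested genes). Their median was -0.81 on the log2 scale, and 10 or 11 were called with any letter left out. With DESeq2 7 were called, with the glmTreat test against a change of 1.2-fold 9, and without the block 1. With at least 1 CPM required in every library, where low genes were not tested, 5 were called. T, the T-box factor of the streak also called brachyury (chr17:8434423-8442496, plus strand), was at 16.5, 9.05 and 32.5 CPM in DMSO A, B and C and at 4.68, 3.58 and 7.44 CPM in MB-3. Every MB-3 library lay below every DMSO library, with log2 ratios of -1.72, -1.23 and -2.05. The log2 fold change was -1.82 ± 0.10 (SE, edgeR adjusted p = 1.5e-14 with the block and 0.061 without it).

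Other streak genes fell as well. Fgf8, a growth factor of the streak (chr19:45736798-45742915, minus strand), was at 2.31, 1.46 and 4.85 CPM in DMSO and 0.623, 0.251 and 1.05 CPM in MB-3 (log2 fold change -2.15 ± 0.20, edgeR adjusted p = 6.6e-09). Mixl1, a homeobox factor of mesendoderm (chr1:180693043-180697034, minus strand), was at 1.60, 1.22 and 3.21 CPM in DMSO and 0.442, 0.524 and 0.653 CPM in MB-3 (-1.84 ± 0.24, edgeR adjusted p = 2.2e-06). Neither gene's groups overlapped. The T-box factor Eomes (-0.65) and the Nodal antagonist Lefty2 (-0.36) fell less, and 6 of the 17 genes did not pass the test.

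**Figure D3:**
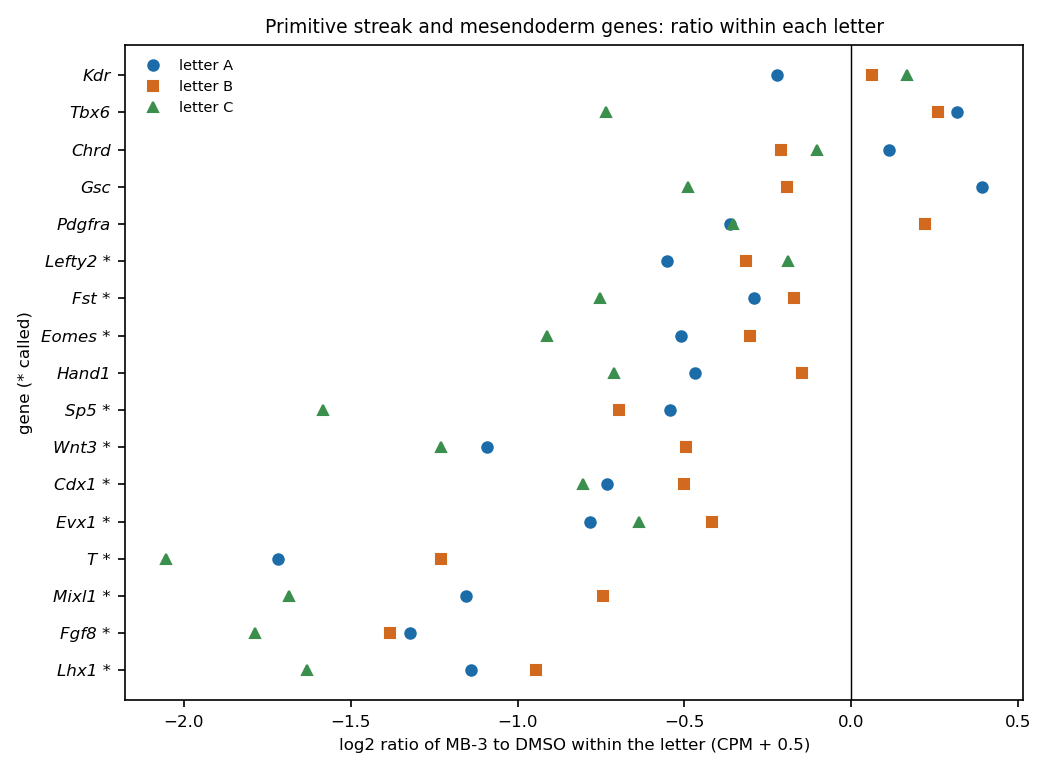
The log2 ratio of MB-3 to DMSO within each letter (horizontal axis, from CPM + 0.5) for the 17 tested primitive streak and mesendoderm genes, ordered by fold change, with an asterisk on the 11 called genes. All 3 letters lie left of 0 for every called gene, and letter B lies nearest to 0 for T (-1.23) and Mixl1 (-0.75).

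Signalling pathways that pattern the streak changed in part, where 3.9% of all tested genes were called lower and 3.22% higher. Of 20 Wnt pathway genes 7 fell and 3 rose. The ligands Wnt4 (-1.47) and Wnt3 (-1.31) and the pathway targets Cdx1 (-1.45), Sp5 (-1.17), Rnf43 (-0.98) and Axin2 (-0.46) fell, whereas Lef1 (0.60), a DNA-binding partner of beta-catenin, Notum (0.38) and Fzd7 (0.17) rose, and Ctnnb1, beta-catenin itself, was at 0.02. Cdx1 and Rnf43 were low, at means of 0.51 and 0.65 CPM over the 6 libraries. Without letter A 6 of these 20 genes were called. In the retinoic acid pathway, the degrading enzyme Cyp26a1 fell by 1.73 on the log2 scale, and of the binding proteins Crabp1 fell (-0.41) and Crabp2 rose (0.46). The 6 calls among the 13 genes of that pathway fell to 2 without letter C.

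In the Nodal pathway 4 of 17 genes fell and 1 rose, where 3.9% of all tested genes were called lower and 3.22% higher. The falls included the antagonists Lefty2 and Lefty1 (-0.34) and the convertase Pcsk6 (-0.30), while Nodal itself was at -0.11 and did not pass the test. Lefty1 was at 85.4, 106 and 76.0 CPM in DMSO A, B and C and at 67.0, 76.7 and 66.5 CPM in MB-3, and B rather than C was highest. Of 18 genes of the BMP pathway 3 fell, Bmp2 (-1.70), Nog (-1.18) and Id2 (-0.23), and 0 rose. Bmp2 was near the floor, at 0.50, 0.34 and 0.86 CPM in DMSO A, B and C and 0.12, 0.02 and 0.42 CPM in MB-3. Without letter B 1 of the 18 was called. In the FGF and ERK pathway the balance was the opposite, with 6 of 20 genes higher and 1 lower. The receptor Fgfr2 (0.37), the feedback inhibitors Spry4 (0.31), Spred2 (0.21) and Spry2 (0.16), the target Etv5 (0.18) and the ligand Fgf4 (0.17) rose, and the ligand Fgf5 fell (-0.56).

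Pluripotency genes were counted by state, and differences between the states were not tested. Over all tested genes, 3.22% were called higher and 3.9% lower. Of 17 naive factors 2 rose and 3 fell with a median of 0.01, of 12 general factors 4 rose, and of 16 primed genes 8 rose and 2 fell with a median of 0.19. Among naive factors Tbx3 (-0.40), Tcl1 (-0.36) and Tfcp2l1 (-0.17) fell and Gbx2 (0.42) and Tet2 (0.21) rose. Nanog was at 274, 262 and 256 CPM in DMSO and 243, 252 and 257 CPM in MB-3, and neither it (-0.08) nor Esrrb (-0.07), Zfp42 (0.07), Klf4 (-0.14) or Sox2 (0.02) passed the test. The 4 general factors that rose were Utf1, Rif1 (0.21), Sall4 (0.19) and Dppa2 (0.18), but Sall4 and Utf1 went the other way within letter B.

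Primed genes are those of the later, postimplantation epiblast. Zic2, a zinc finger factor of that state (chr14:122475435-122479852, plus strand), was at 32.6, 33.6 and 29.7 CPM in DMSO and 45.9, 41.2 and 42.8 CPM in MB-3, without overlap. Its log2 fold change was 0.44 ± 0.06 (SE, edgeR adjusted p = 2e-06). Its neighbour Zic5 (0.39), Dnmt3a, Dnmt3b, Otx2 (0.30), Foxd3 (0.29), Etv5 and Lef1 rose too, whereas Fgf5 and Cdh2, which also belong to the primed list, fell. Without a letter, 8 to 10 of the 16 primed genes were called.

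LIF signalling, which a list written after changed genes had been seen describes, showed Socs3, its feedback inhibitor, at 135, 135 and 130 CPM in DMSO and 102, 112 and 107 CPM in MB-3. The groups did not overlap (log2 fold change -0.32 ± 0.05, edgeR adjusted p = 1.2e-05). Of the 13 members 2 rose and 3 fell (38.5% called, against 7.12% of all tested genes). In that list, 2 genes were called without letter A and 3 without B. Of 9 neuroectoderm genes (33.3% called), Sox21 (0.56) and Pax6 (0.39) rose, Nes fell, and Tubb3 (0.10) did not pass the test. None of 17 neuronal and synaptic genes was called in the fit described above. However, 1 was called without letter B and 1 with at least 1 CPM required in every library.

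Transcription factor genes went both ways. Of 864 tested, 60 rose and 41 fell, which is 11.7% against 7.12% of all tested genes, and 7 of the 864 were called without the block. The largest called rises with at least 1 CPM included Lef1, Bcl11a (0.57), Sox21, Six4 (0.48), Zic2, Gbx2, Neurod1 (0.42), Prdm16 (0.39) and Pax6. The largest falls included Mixl1, T, Sp5, Atf3, Zfhx4 (-0.89), Fosl2, Hes2 (-0.70), Eomes and Elf4 (-0.65). Some of the levels were low, with Sox21 at 6.36 to 7.12 CPM in DMSO and 9.64 to 10.1 CPM in MB-3. Lef1, Bcl11a, Sox21, Gbx2, Neurod1, Prdm16, Eomes and Jun overlap genes on the opposite strand.

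**Figure D4:**
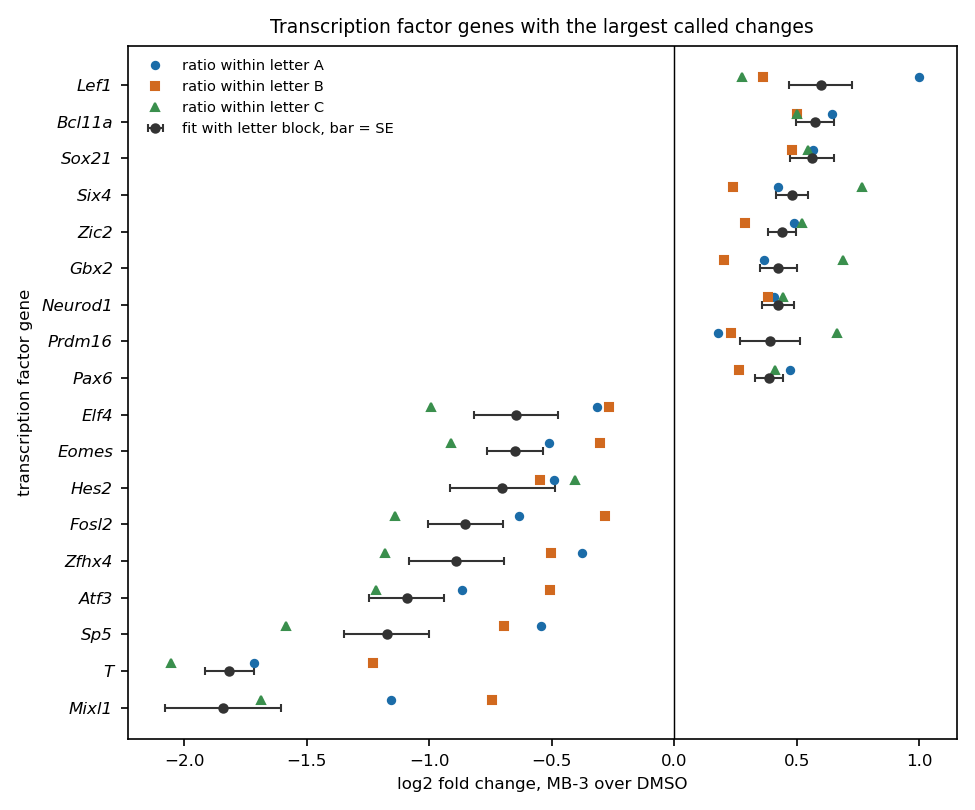
Log2 fold change of MB-3 over DMSO for transcription factor genes among the 10 largest called rises and the 10 largest called falls with at least 1 CPM, without those not reported here. Black points are the fit with the letter block with bars of 1 SE and coloured symbols are the log2 ratios within letters A, B and C, which lie on the same side of 0 for each gene, from -2.05 (T, letter C) to 1.00 (Lef1, letter A).

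Transcription factor genes were also counted by family. The basic leucine zipper family, which holds the AP-1, Atf and Cebp factors, had 1 of 44 members higher and 10 lower, at a median of -0.15, and 6 members were called without letter C. The zinc finger genes with Zfp or Zscan names, many of them repressors, had 27 of 435 higher and 2 lower, with a median of 0.07, and the 6.67% called was near the 7.12% of all tested genes. Their changes were small and their calls fell to 14 without letter A and 17 without B. Of the T-box family 3 of 10 fell (T, Eomes and Tbx3) and 0 rose, and of the Irf, Stat and Rel factors 4 of 24 fell and 0 rose, with 2 called without letter A. Both Zic2 and Zic5 rose among 9 Zic and Gli genes, and 8 of 73 homeodomain genes outside the other families rose while 7 fell. None of 9 Hox genes and 6 Gata genes was called by edgeR with the block.

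A further set of falls lay in the interferon response and antigen presentation, by which cells answer viral signals and display peptides. Of 21 tested genes 10 fell and 2 rose (57.1% called, against 7.12% of all tested genes). Their median was -0.45, and 9 to 11 were called with a letter left out. The promoters of Gbp2 and Gbp3, the guanylate-binding proteins 2 and 3, are shown because both genes fell strongly and both hold TTTCNNTTTC, the core that interferon regulatory factors bind, which was searched on both strands and stands in capitals. The 250 bases before the RefSeq start on GRCm38.p6, both on the plus strand, were chr3:142620413-142620662 for Gbp2 and chr3:142559794-142560043 for Gbp3.
Gbp2: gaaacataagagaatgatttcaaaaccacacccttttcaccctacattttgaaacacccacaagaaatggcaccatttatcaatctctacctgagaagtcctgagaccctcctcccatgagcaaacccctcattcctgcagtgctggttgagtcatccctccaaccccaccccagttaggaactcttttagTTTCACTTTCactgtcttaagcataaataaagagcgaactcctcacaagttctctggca
Gbp3: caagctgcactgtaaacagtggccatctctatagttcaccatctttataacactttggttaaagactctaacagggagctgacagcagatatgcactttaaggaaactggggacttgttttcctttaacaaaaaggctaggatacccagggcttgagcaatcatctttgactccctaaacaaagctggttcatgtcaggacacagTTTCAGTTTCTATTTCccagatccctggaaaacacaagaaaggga

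The motif began 59 bases before the RefSeq start of Gbp2 and, as overlapping copies, 45 and 39 bases before that of Gbp3. The GENCODE M21 starts of Gbp2 (142620602) and Gbp3 (142560026) lie within the bases shown, that of Gbp2 just before its motif. TTTCNNTTTC was found in 3.04% of 27025 RefSeq promoters of this length, in 5 of 10 promoters of the interferon genes that fell and in 4 of 10 of those that did not. A second motif searched there, TTCNNNGAA, was in 7.18% of all promoters, in 2 of 10 of those that fell and in 3 of 10 of those that did not.

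Gbp2 (chr3:142620602-142638008, plus strand) was at 31.9, 16.4 and 59.0 CPM in DMSO A, B and C and at 11.5, 8.04 and 17.5 CPM in MB-3. Letter C was highest and B lowest under both treatments, MB-3 C lay above DMSO B, and the log2 fold change was -1.46 ± 0.08 (SE, edgeR adjusted p = 2.3e-14). Gbp2b (-1.58), Gbp3 (-1.41) and Gbp7 (-1.14) fell with it, but reads may be shared among these similar genes. Isg15 (-1.61), Oasl2 (-1.26), the immunoproteasome subunit Psmb8 (-1.10), the class I genes H2-K1 (-0.54) and H2-D1 (-0.51), the peptide transporter Tap1 (-0.51) and the class I light chain B2m (-0.45) also fell. B2m was at 35.1, 35.9 and 41.2 CPM in DMSO and 25.2, 26.5 and 30.3 CPM in MB-3, without overlap. The upstream regulator Irf1 (-0.09) did not pass the test, and Ifitm3 (0.25) and Ifitm1 (0.15) rose.

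Of the lists named here, that of Atf4 had the largest share of members called. Atf4 is the transcription factor of the amino acid response, which induces genes for amino acid synthesis and transport. Its list, too, was written after changed genes had been seen. Of 25 tested members 22 fell and 0 rose (88.0% called, against 7.12% of all tested genes). Their median was -0.25, and 16 to 19 were called with a letter left out. With DESeq2 15 were called, with the glmTreat test against a change of 1.2-fold 6, and without the block 2. The promoters of Asns, asparagine synthetase, and Chac1, a glutathione-degrading enzyme, are shown as members that fell and hold the letters TGATGNAA, the core of the sites of Atf4 with Cebp partners, in capitals and searched on both strands. The 250 bases before the RefSeq start on GRCm38.p6 were chr6:7693210-7693459 on the minus strand for Asns and chr2:119350992-119351241 on the plus strand for Chac1, where the match reads on the opposite strand.
Asns: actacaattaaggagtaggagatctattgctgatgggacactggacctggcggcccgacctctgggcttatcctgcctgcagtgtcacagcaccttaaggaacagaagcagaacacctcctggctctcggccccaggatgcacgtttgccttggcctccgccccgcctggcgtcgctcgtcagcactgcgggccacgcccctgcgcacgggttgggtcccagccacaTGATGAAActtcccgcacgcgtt
Chac1: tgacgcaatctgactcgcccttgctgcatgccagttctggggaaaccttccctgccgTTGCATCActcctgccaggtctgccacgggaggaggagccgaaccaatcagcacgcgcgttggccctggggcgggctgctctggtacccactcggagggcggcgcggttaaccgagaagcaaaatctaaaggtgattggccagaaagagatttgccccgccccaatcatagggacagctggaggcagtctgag

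The motif stood in 3.53% of the 27025 promoters. It was found in 4 of the 20 promoters of Atf4 list members that fell and were in the table (Asns, Chac1, Nupr1 and Pck2), and in 1 of 2 of those that did not.

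Asns was at 362, 341 and 417 CPM in DMSO A, B and C and at 275, 275 and 336 CPM in MB-3, and every MB-3 library lay below every DMSO library. The log2 fold change was -0.34 ± 0.04 (SE, edgeR adjusted p = 1.3e-06). Nupr1, a stress-induced chromatin protein, was at 33.9, 27.1 and 36.4 CPM in DMSO and 19.4, 16 and 19.2 CPM in MB-3 (-0.83 ± 0.06, edgeR adjusted p = 1.3e-11). Cth, which makes cysteine, was at 168, 139 and 179 CPM in DMSO and 105, 106 and 122 CPM in MB-3 (-0.54 ± 0.05, edgeR adjusted p = 3.2e-09). Both Nupr1 and Cth were called without the block too.

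Factors, synthesis genes and transporters of the Atf4 list were among the falls. Atf4 itself fell by 0.27 on the log2 scale, as did the factors Ddit3 (-0.52) and Atf5 (-0.47) and the pseudokinase Trib3 (-0.47). In serine and one-carbon synthesis, Mthfd2 (-0.32), Phgdh (-0.23), Psph (-0.22), Shmt2 (-0.21) and Psat1 (-0.21) fell, and among transporters Slc7a1 (-0.21), Slc7a5 (-0.14) and Slc3a2 (-0.14). Slc7a11, the cystine transporter (-0.25), Cebpb (-0.24) and Slc7a3 (0.01) did not pass the test. Vldlr fell (-0.41) but was slightly higher in MB-3 within letter B. Of 20 aminoacyl-tRNA synthetases Nars (-0.25), Cars (-0.22) and Aars (-0.14) fell and 0 rose, where 3.9% of all tested genes were called lower. Of these 20, 2 were called without letter A, 3 without B and 6 without C. Of 18 genes of the endoplasmic reticulum stress response, which shares part of its output with Atf4, Herpud1 alone fell (-0.45). Hspa5 (-0.10) and Xbp1 (-0.06) did not pass the test. The 5.56% called was near the 7.12% of all tested genes, and 2 of the 18 were called without letter C.

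**Figure D5:**
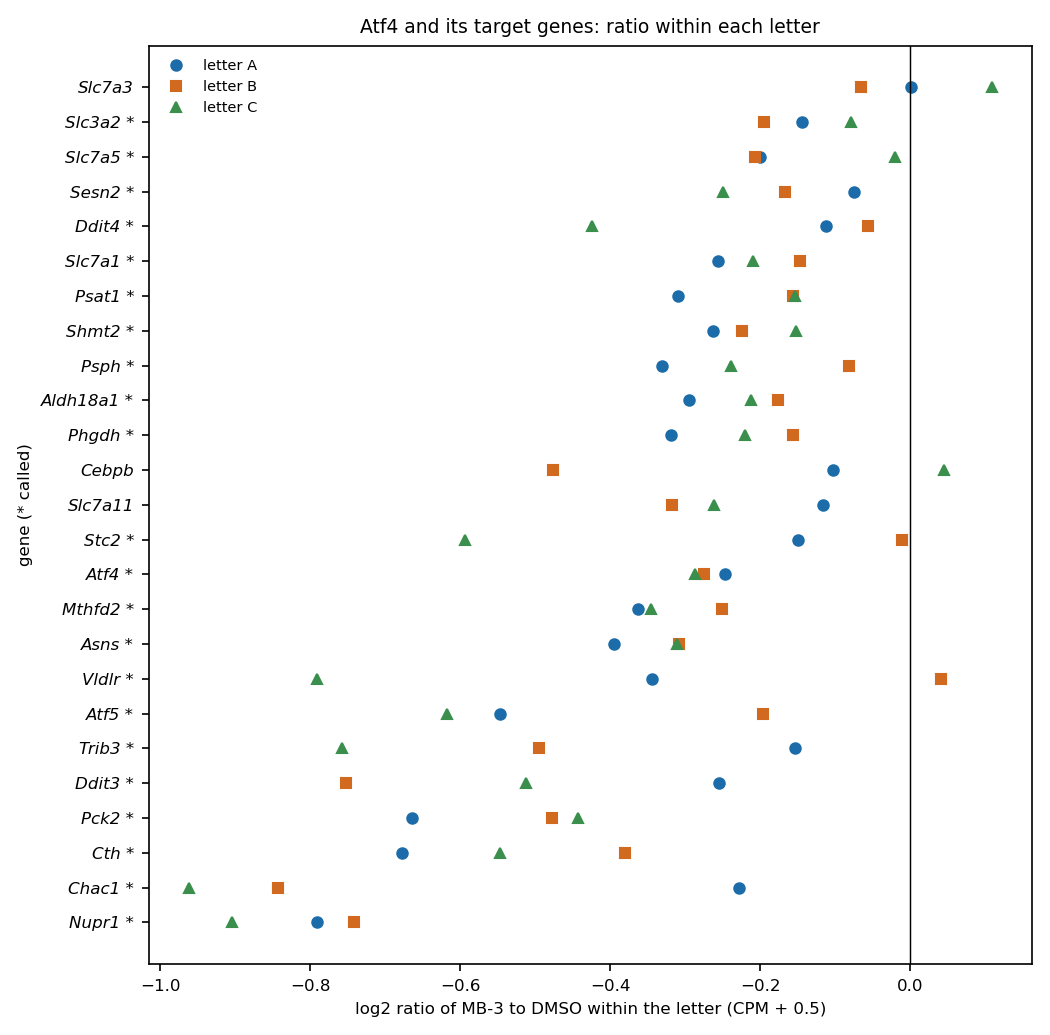
The log2 ratio of MB-3 to DMSO within each letter (horizontal axis, from CPM + 0.5) for Atf4 and its 24 tested targets, ordered by fold change, with an asterisk on the 22 called genes. All letters lie left of 0 for the called genes except Vldlr in letter B, and Asns (-0.40, -0.31 and -0.31 in A, B and C) shows little spread between letters.

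Other stress pathways were called in part, and their lists differed in direction. Across all tested genes 3.9% were called lower and 3.22% higher. Of 18 p53 targets 6 fell and 0 rose, among them Gdf15 (-0.66), Perp (-0.55) and the cell cycle inhibitor Cdkn1a (-0.54), while Bax (-0.08) did not pass the test. Of 18 heat shock genes 3 fell, Cryab (-1.24), Hspb8 (-0.45) and Hspb1 (-0.32), all small heat shock proteins, and Hspb1 did not fall within letter C. The Nrf2 targets, also listed after changed genes had been seen, had 5 of 21 members higher and 0 lower. Cbr3, a carbonyl reductase (chr16:93683215-93690990, plus strand), was at 22.8, 31.6 and 24.3 CPM in DMSO and 41.7, 41.8 and 41.1 CPM in MB-3, without overlap. Its log2 fold change was 0.67 ± 0.06 (SE, edgeR adjusted p = 9.5e-09), and Nqo1 (0.33), Gclm (0.31), Txnrd1 (0.25) and Gstm1 (0.19) rose beside it, while Srxn1 (0.16) did not pass the test.

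Metabolic genes were called in part, against 7.12% called of all tested genes. Of 23 glycolysis and hypoxia genes (30.4% called) 6 rose, Egln3 (0.39), Bnip3 (0.34), Pfkl (0.20), Pdk1 (0.17), Eno1 (0.15) and Gpi1 (0.13), and Vegfa fell (-0.46). Of 24 lysosome genes (37.5% called) 8 fell and 1 rose, among them Hexa (-0.21) and the cathepsins Ctsb and Ctsl (-0.19 each), but 1 to 4 genes of the list were called when a letter was left out. Of 15 fatty acid synthesis genes (26.7% called) 1 rose and 3 fell, and 1 or 2 were called with a letter left out. Of 83 cytosolic ribosomal proteins 6 fell and 1 rose, and 1 was called without letter B. Of 83 oxidative phosphorylation subunits 1 was called, but 0 without letter B and 3 without C. Of 38 proteasome subunits 1 was called (Psmb8), and 2 without letter A or C. Of 21 sterol synthesis genes 1 was called, and 0 without letter A or C. Of 32 cell cycle and replication genes 0 were called by edgeR with all letters and 3 without letter C.

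Over all tested genes, the largest falls among called genes with at least 1 CPM were Sprr2a3 (-2.22), Fgf8, Sprr2a2 (-2.09), Sprr2a1 (-2.08), Pcdh7 (-2.04), Cited1 (-1.87), Mixl1, Loxl4 (-1.82), T and Cyp26a1. The Sprr2a genes, small proline-rich proteins of cornified epithelia, are near-identical and adjacent, so their reads may be shared, and Pcdh7, a protocadherin, overlaps a gene on the opposite strand. Cited1, a transcriptional coactivator, was at 1.35, 0.678 and 3.46 CPM in DMSO and 0.362, 0.182 and 0.956 CPM in MB-3, with overlap between treatments.

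The largest rises were smaller than the largest falls. The named genes among the 10 with the largest rises were Themis (0.86), Mmp23 (0.84), Ccno (0.82), Ms4a14 (0.80), Sncb (0.79), Lgals9 (0.76) and Col9a2 (0.74), and the other 3 had no approved name. The rises with the smallest p included Cbr3, Aire (0.49), Lgals9 and Nav2 (0.45). Lgals9, a galectin, was at 6.19, 7.10 and 5.75 CPM in DMSO and 9.46, 12.3 and 10.5 CPM in MB-3 (0.76 ± 0.09, edgeR adjusted p = 5.3e-07), while Lgals1, another galectin, fell by 0.32 on the log2 scale. Aire overlaps Dnmt3l on the opposite strand, and Themis overlaps a predicted gene.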

How the data were processed

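PolyA RNA of 6 samples was analysed. The authors aligned trimmed single-end HiSeq 4000 reads to mm10 with Bowtie and counted them at exons with GenomicAlignments, and they deposited raw counts per Ensembl gene. Tool versions, the annotation and whether counting used strand are not given in the sources used here. The table held 30677 genes, 0 rows without a gene and 0 columns that were not used. The H3K9ac ChIP-seq peak lists of the series were not used here.

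Libraries were assigned to treatment and letter by their labels. Genes were kept by filterByExpr (20027), scaled by TMM and tested with glmQLFit and glmQLFTest in edgeR 4.0.16 (R 4.3.3) with the letter and the treatment as terms, which leaves 2 residual degrees of freedom per gene before moderation. Adjustment was by Benjamini-Hochberg over all tested genes, at a threshold of 0.05. Standard errors of log2 fold changes had a median of 0.0823 with the block and 0.101 without it. For edgeR they were derived as the size of the log2 fold change divided by the square root of the F statistic. Ratios within a letter are log2 of CPM + 0.5. Depth per library was 42270312 to 51137896 counts.

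Symbols and coordinates are from GENCODE M21 on GRCm38, and promoter sequences from RefSeq on GRCm38.p6. Counts are uncertain for genes with a neighbour overlapping on the other strand (341 of the called genes) or with near-identical copies. The comparison, gene lists and markers were chosen with earlier results of these data known, and lists are described by counts and medians without a test. Named genes were the marker genes, Kat2a and Kat2b, the 10 largest rises and falls and the 5 smallest p-values in each direction among called genes with at least 1 CPM that moved one way in all letters, the 10 largest rises and falls of transcription factors under the same conditions, and members of the described lists. Some of them are not reported here. Alternatives were no block, RLE and upper quartile factors, other filters, DESeq2 1.42.0, limma-voom (limma 3.58.1), robust dispersions, glmTreat and each letter left out. Motifs were searched in Python 3.11.15, and those searched in the contractile, keratin and YAP lists are not reported here.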

Additional observations from a re-analysis of the deposited data

How the results depend on the processing

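The letter block decided how many genes were called. With no replicate block, edgeR called 41 genes, 20 higher and 21 lower, 3 of them at least 2-fold, and 163 of the 216 genes named in the text were past the threshold only with the block. The other 1384 calls rest on comparing libraries within letters, and whether the letters pair the cultures was not settled. Of the 1425 called genes, 0 changed sign under any alternative in which they were tested. All alternatives used the same libraries or a part of them.

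DESeq2 with the letter in its design called 626 genes (281 higher, 345 lower, 54 at least 2-fold), with adjusted p left as NA for 48 of the 1425. A glmTreat test against a change of 1.2-fold called 202 (22 higher, 180 lower, 72 at least 2-fold), so most of the rises were too small to be told from that size. With at least 1 CPM in every library, 27 genes changed at least 2-fold instead of 110, since low genes were not tested. With a letter left out, the calls ranged from 912 without B to 1037 without C (939 without A), with 356 to 485 higher, 550 to 556 lower and 101 to 112 at least 2-fold. Between 27 and 31 named genes then lost their call. RLE and upper quartile factors, no filter, limma-voom and robust dispersions gave 1379 to 1688 calls.

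A few genes that were not called changed sign close to 0. Actb went from 0.00 to -0.0020 with upper quartile factors and -0.0026 with no filter, and ranged from -0.0901 to 0.0751 with a letter left out. Fn1 went from 0.01 to -0.0062 with no replicate block and -0.00048 with no filter, and ranged from -0.0914 to 0.0686 with a letter left out. The ranges over the left-out letters were -0.0488 to 0.0274 for Kat2a, -0.0714 to 0.0723 for Kat2b, -0.0234 to 0.0464 for Ctnnb1, -0.0328 to 0.0525 for Slc7a3 and -0.0097 to 0.0537 for Sox2.

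Depth was alike between libraries, and genes under 1 CPM gave 12 of the calls higher and 53 of those lower in MB-3. The cause of differences between tools was not tested.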

Other observations

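Of 5 tested insulin-like growth factor binding proteins, a family chosen after the values were seen, 3 fell (60.0%, against 3.9% of all tested genes). Igfbp3 was at 61.8, 36.0 and 105 CPM in DMSO A, B and C and at 29.0, 22.2 and 43.1 CPM in MB-3 (log2 fold change -1.04 ± 0.07, edgeR adjusted p = 1.4e-12), followed by Igfbp4 (-0.90) and Igfbp5 (-0.76). Letter C was highest for Igfbp3 under both treatments, and the groups overlapped. Among imprinted genes, which are expressed from a single parental copy, 4 of 25 fell and 2 rose (24.0% called, against 7.12% of all tested genes). Plagl1, a zinc finger factor, was at 4.67, 3.27 and 5.92 CPM in DMSO and 2.51, 1.80 and 2.57 CPM in MB-3 (-1.0 ± 0.13, edgeR adjusted p = 4.5e-06).

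Long genes were called higher more often. With tested genes divided into 4 groups of like size by exon length, 61, 98, 157 and 325 genes rose from the shortest to the longest group, whose median lengths were 648, 2291, 4277 and 8057 bases, and 109, 239, 242 and 191 fell. The median log2 fold change went from -0.02 in the shortest to 0.03 in the longest group. Length also goes with the number of reads per gene, and its part in the calls was not tested.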
